A study of Mus musculus with 40 samples.

Results

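Expression of 10 genes for branched-chain amino acid breakdown was examined in mouse liver after repeated exposure to the dioxin TCDD, or 2,3,7,8-tetrachlorodibenzo-p-dioxin, a persistent contaminant that activates the aryl hydrocarbon receptor (AhR). The genes were Bcat2, Bckdha, Bckdhb, Dbt, Ivd, Mccc1, Mccc2, Hibadh, Acad8 and Acadsb. They were chosen by name for their place in the pathway, with earlier results of these data known, and each symbol matched 1 of the 55359 gene identifiers in the count files. All 10 passed the filter on low counts, as did 15373 genes in all. Male C57BL/6 mice received sesame oil vehicle or TCDD at 30, 10, 3, 1, 0.3, 0.1 or 0.03 µg/kg by oral gavage, given every 4 days over 28 days, from 30 to 58 days of age by the sample labels. Each of the 8 groups held 5 mice, and each of the 40 libraries came from the liver of 1 mouse. The libraries held 15.5 to 21.0 M counts in genes (M, 1e6), and the median library held 17.5 M. Counts of libraries in the same group differed by far more than sampling noise (chi-square per degree of freedom from 11.1 to 196).

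Leucine, isoleucine and valine are broken down in mitochondria. A transaminase first turns them into branched-chain keto acids, and the branched-chain keto acid dehydrogenase complex (BCKDH) then commits the keto acids to breakdown by joining them to coenzyme A. The 3 carbon skeletons part after that step, leucine ending in acetyl-CoA and acetoacetate, valine in propionyl-CoA and isoleucine in both acetyl-CoA and propionyl-CoA. Hepatocytes hold little of the transaminase and much of the dehydrogenase complex, so the liver works largely on keto acids that other organs release.

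At 30 µg/kg, 7 of the 10 genes were repressed: Bcat2, Bckdha, Bckdhb, Mccc1, Mccc2, Hibadh and Acadsb. A call needed a 1.5-fold difference from vehicle or more, together with a Benjamini-Hochberg adjusted p below 0.05 in the quasi-likelihood test of edgeR, adjusted over all genes. By this rule 18.9% of all genes tested were called lower at 30 µg/kg and 42.1% were called in either direction. The median log2 fold change of the 10 genes was -0.83, with a range from -1.44 to -0.46, and the median of all genes tested was 0.03. The same 7 genes were those for which all 5 mice at 30 µg/kg lay below every vehicle mouse, and 17.9% of all genes tested had that separation. Ivd and Acad8 also passed by adjusted p, with fold changes short of the threshold, so that 9 genes were lower by adjusted p alone, beside 26.6% of all genes tested. Dbt passed neither rule. Libraries came from whole liver, so fewer hepatocytes and less RNA per hepatocyte cannot be told apart.

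At 10 µg/kg, 1 gene was called, Acadsb, which was 1.82-fold lower, and 8.13% of all genes tested were called lower at that dose. Without the fold threshold, 5 of the 10 genes had an adjusted p under 0.05, all lower (Bcat2, Bckdhb, Mccc2, Hibadh and Acadsb), beside 14.1% of all genes tested. In each of these 5 genes, all 5 mice at 10 µg/kg lay below every vehicle mouse, a separation that 10.1% of all genes tested had. Which genes passed depended on the scale. With total counts, Acadsb kept its call (adjusted p 0.0368), beside 4.92% of all genes called lower. Hibadh was lower by adjusted p alone (0.0487), and Ivd and Acad8 were higher by it (0.000101 and 0.0014). Bcat2, Bckdhb and Mccc2 did not pass. At 3 µg/kg and at each lower dose 0 of the 10 genes were called by edgeR, where 6.75% of all genes tested were called in either direction at 3 µg/kg, 2.78% at 1 µg/kg, 0.468% at 0.3 µg/kg, 0.0976% at 0.1 µg/kg and 0.0195% at 0.03 µg/kg. By adjusted p alone 3 genes passed at 3 µg/kg, Bckdhb lower and Ivd and Acad8 higher, beside 10.3% of all genes tested. At 1, 0.3, 0.1 and 0.03 µg/kg no gene of the 10 passed by adjusted p alone, beside 3.75%, 0.52%, 0.104% and 0.026% of all genes tested. DESeq2 called 7 of the 10 genes at 30 µg/kg, beside 18.9% of its genes called lower, and 1 at 10 µg/kg, beside 8.61%.

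Between 10 and 30 µg/kg, 5 genes fell further by the same rule (Bckdha, Ivd, Mccc1, Mccc2 and Acad8), beside 10.6% of all genes tested. Hibadh and Acadsb, with log2 differences of -0.58 each, were just short of the fold threshold. By adjusted p alone 8 genes were lower at 30 than at 10 µg/kg, beside 16.9% of all genes tested. A linear slope over the ordered dose steps, from vehicle as 0 to 30 µg/kg as 7, was downward with an adjusted p under 0.05 in 7 of the 10 genes, and 26.1% of all genes tested had a downward slope by that test. The slopes of Ivd, Acad8 and Dbt did not pass, at -0.012, -0.0073 and -0.033 log2 units per step. With total counts as the scale in place of TMM, Ivd and Acad8 had upward slopes of 0.039 and 0.044 per step (adjusted p 0.0225 and 0.0121), and the downward slope of Mccc1 did not pass (-0.025, adjusted p 0.0892). In the first of the 2 runs of library titles (title numbers up to 27), the slopes of Bckdha and Mccc1 did not pass (adjusted p 0.332 and 0.185). The slope was steepest for Acadsb, at -0.17 per step (SE 0.03).

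**Figure D1:**
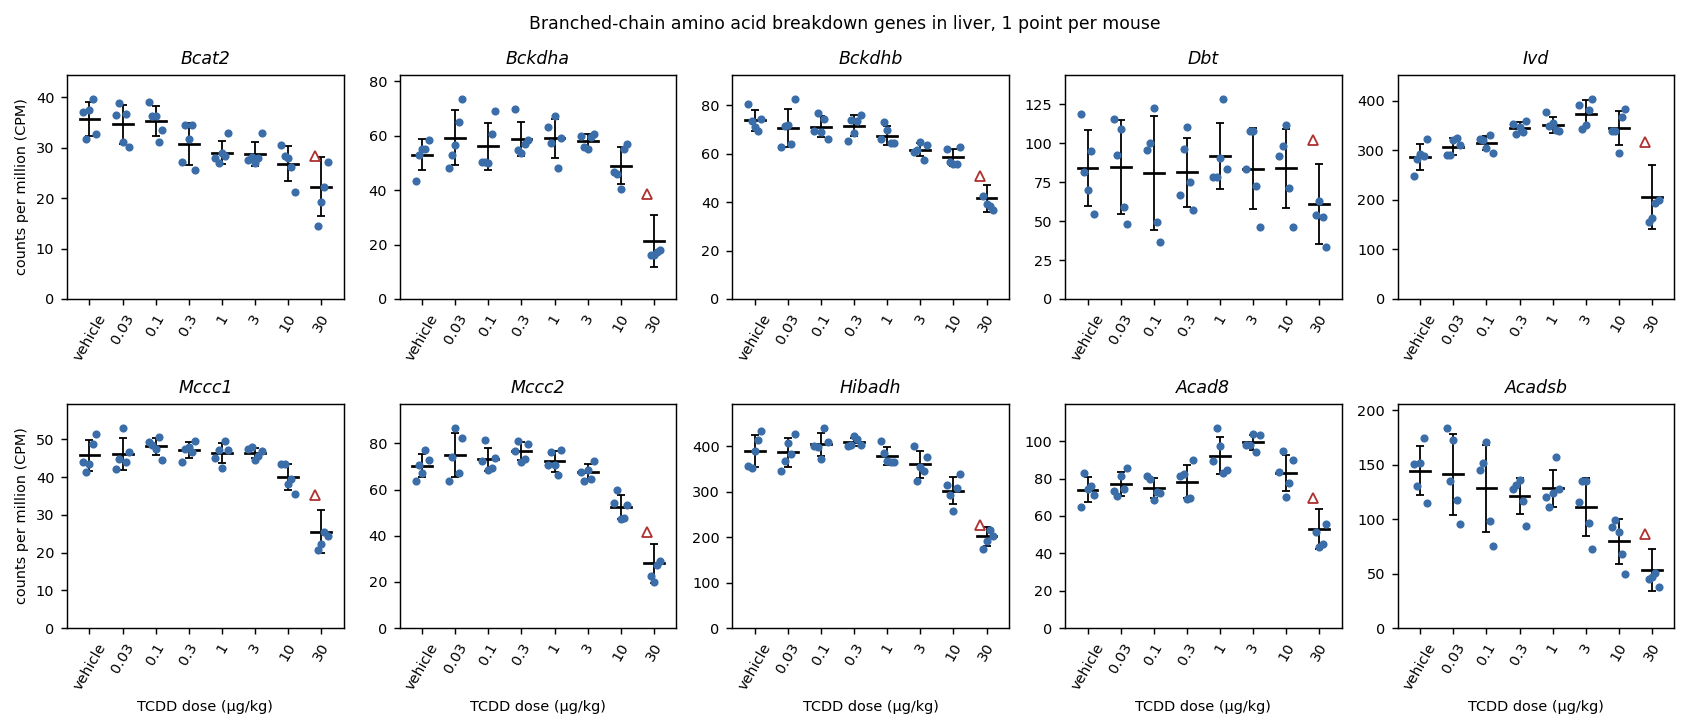
Expression in CPM (counts scaled to 1e6 per library, vertical axis from 0) of the 10 genes against TCDD dose (horizontal axis, ordered groups), with 1 point per mouse, a bar at the mean and whiskers of 1 SD (n = 5). The open triangle marks replicate 1 at 30 µg/kg, the highest of its group in every panel. Ivd and Acad8 are highest at 3 µg/kg, and Acadsb is already low at 10 µg/kg.

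Replicate 1 at 30 µg/kg stood apart from its group, and it was the highest of the 5 mice in all 10 genes. On the first principal component of all genes it scored 81.7, against 129 to 147 for the other 4 mice at this dose and 39.1 to 67.8 for the mice at 10 µg/kg. Without this library all 10 genes were called lower at 30 µg/kg, including Dbt (log2 fold change -0.73), Ivd (-0.69) and Acad8 (-0.60), beside 20.4% of all genes in that fit. Without replicate 2 of the same group, which was the lowest for Bcat2, the count was 6, since Bcat2 was then at -0.58, beside 18.4% of all genes.

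The 250 bases upstream of the start are shown for a pair of genes with large falls, Acadsb and Mccc2, and for a pair that was not called against vehicle at 30 µg/kg, Ivd and Acad8. None of these 4 genes shares exons with another gene. The sequences run 5′ to 3′ on the strand of the gene and come from RefSeq on GRCm38.p6, at chr7:131410351-131410600 (plus strand) for Acadsb, chr13:100015640-100015889 (minus) for Mccc2, chr2:118861744-118861993 (plus) for Ivd and chr9:26999550-26999799 (minus) for Acad8. Capitals mark GCGTG, the core that AhR and its partner recognize, or CACGC, the same core on the other strand.
Acadsb: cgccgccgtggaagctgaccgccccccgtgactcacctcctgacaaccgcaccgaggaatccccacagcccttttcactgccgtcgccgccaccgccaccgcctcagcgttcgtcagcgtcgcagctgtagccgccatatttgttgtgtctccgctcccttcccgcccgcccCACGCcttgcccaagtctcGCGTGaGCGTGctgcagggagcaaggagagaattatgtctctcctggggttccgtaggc
Mccc2: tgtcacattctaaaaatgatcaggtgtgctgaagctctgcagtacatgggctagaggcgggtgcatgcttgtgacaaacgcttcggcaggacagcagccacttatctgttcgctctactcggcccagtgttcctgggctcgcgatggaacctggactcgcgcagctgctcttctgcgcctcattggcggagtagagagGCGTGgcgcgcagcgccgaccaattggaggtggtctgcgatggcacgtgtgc
Ivd: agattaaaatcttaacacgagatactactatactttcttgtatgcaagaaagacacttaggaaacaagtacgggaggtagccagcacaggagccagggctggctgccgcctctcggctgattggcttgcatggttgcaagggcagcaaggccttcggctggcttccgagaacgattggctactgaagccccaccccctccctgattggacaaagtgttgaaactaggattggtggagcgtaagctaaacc
Acad8: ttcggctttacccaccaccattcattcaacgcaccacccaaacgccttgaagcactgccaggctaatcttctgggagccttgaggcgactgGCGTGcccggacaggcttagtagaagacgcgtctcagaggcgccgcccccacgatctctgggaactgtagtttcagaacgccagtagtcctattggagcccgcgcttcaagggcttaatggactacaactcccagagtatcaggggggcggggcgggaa
Acadsb held 3 cores, whose first bases lie 78, 59 and 53 bases before the start, and the last 2 are 1 base apart. Mccc2 held 1 core at 52 bases and Acad8 held 1 at 159 bases. Of the other genes, Hibadh held 2 cores at 126 and 64 bases and Bckdha held 1 at 75 bases, so 5 of the 9 genes with a window held the core. Over all windows in the RefSeq table, 28.2% of 32851 held it, as did 30.9% of 27025 genes. The windows of Ivd, Mccc1, Bcat2 and Bckdhb do not contain these letters. A core is a match of 5 letters and was not tested as a binding site.

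Bcat2 (ENSMUSG00000030826) encodes the mitochondrial transaminase of the first step. Values are CPM, counts scaled to 1e6 per library. Vehicle mice had 37.1, 31.7, 37.4, 39.7 and 32.7 CPM, and mice at 30 µg/kg had 28.4, 14.4, 19.2, 22.1 and 27.2 CPM. The highest mouse at 30 µg/kg was below the lowest vehicle mouse. Bcat2 fell 1.60-fold (log2 fold change -0.68, SE 0.13, adjusted p 1.59e-05). At 0.3, 1, 3 and 10 µg/kg the log2 fold changes of Bcat2 were -0.22, -0.30, -0.32 and -0.41, of which the value at 10 µg/kg had an adjusted p under 0.05 (0.0101). Bcat2 shares 622 exonic bases with a gene on the opposite strand, 0610005C13Rik, and reads over that stretch are counted for neither gene in the unstranded column. The libraries do not keep strand, so the sum of both strand settings of the files counts such a read for both genes. This sum was 301% above the unstranded counts of Bcat2 and gave a log2 fold change of -0.64, with reads of either gene in it.

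BCKDH has 3 catalytic parts. Bckdha and Bckdhb encode the alpha and beta subunits of the decarboxylase (E1), and Dbt encodes the transacylase (E2) that forms the core of the complex. For Bckdha (ENSMUSG00000060376), vehicle mice had 43.3, 52.9, 55.2, 55.0 and 58.4 CPM. The mice at 30 µg/kg had 38.5, 16.3, 16.0, 17.4 and 18.0 CPM. Replicate 1 was far above the other 4 and still below every vehicle mouse. Bckdha fell 2.50-fold (log2 fold change -1.32, SE 0.16, adjusted p 1.03e-08), and its log2 fold change was -1.65 without replicate 1. At the 6 lower doses the log2 fold change of Bckdha lay between -0.11 and 0.16, so the step from 10 to 30 µg/kg (-1.21, SE 0.16) held nearly all of its fall. Bckdha shares 1171 exonic bases with B3gnt8 on the opposite strand, and the counts of both strand settings were 461% above the unstranded ones. On that sum the log2 fold change at 30 µg/kg was -1.21.

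Bckdhb (ENSMUSG00000032263) had 80.7, 73.7, 71.2, 69.3 and 74.5 CPM in vehicle mice and 51.0, 42.4, 39.4, 38.2 and 36.9 CPM at 30 µg/kg. The groups were far apart, and the fall was 1.78-fold (log2 fold change -0.83, SE 0.08, adjusted p 5.58e-11). All 5 mice at 3 µg/kg and all 5 at 10 µg/kg were also below every vehicle mouse. There the log2 fold changes were -0.26 (adjusted p 0.0342) and -0.34 (adjusted p 0.00135), below the fold threshold. Wholly below vehicle at 10 µg/kg were 10.1% of all genes tested, and at 3 µg/kg this share was not computed.

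Dbt (ENSMUSG00000000340) varied widely between mice of the same dose. Vehicle mice had 119, 81.5, 70.2, 95.0 and 54.7 CPM, and mice at 30 µg/kg had 102, 53.7, 63.1, 52.8 and 33.2 CPM. The groups overlapped, since replicate 1 at 30 µg/kg exceeded 4 of the 5 vehicle mice. The log2 fold change of -0.46 (SE 0.30) had an adjusted p of 0.189, and its 95% interval ran from -1.05 to 0.12. A change of the size seen in Bckdhb lies inside that interval, as does no change.

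In part of the libraries, the spread of Dbt followed the numbering of their titles. Titles fall into a first run (numbers up to 27) and a second run (from 28). Each dose has 3 places in a row in each run, some of them empty, and the labels do not say what the numbers mark. In the second run, Dbt lay above its dose group's mean by 0.43 log2 units on average in the 7 libraries at the first place of their dose. Its mean deviation was -0.27 in the 8 libraries at the next place and -0.76 in the 6 libraries at the last place, which ranged from -1.01 to -0.46. Acadsb had the same order, with means of 0.24, -0.16 and -0.54. In the first run the means by place lay closer together, at 0.25, 0.17 and 0.17 for Dbt and 0.23, 0.04 and 0.14 for Acadsb. The SD of Dbt within a dose was 0.52 log2 units, and 0.28 once run and place were taken into account. For Acadsb the SD went from 0.36 to 0.21, while for the other 8 genes it was between 0.11 and 0.25 before and between 0.11 and 0.24 after. With run and place as covariates the log2 fold change of Dbt at 30 µg/kg was -0.29 (adjusted p 0.133), and that of Acadsb was -1.33.

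Leucine breakdown continues with isovaleryl-CoA dehydrogenase (Ivd), which oxidizes the product of BCKDH, and then with methylcrotonoyl-CoA carboxylase, a biotin enzyme made of Mccc1 and Mccc2 subunits. For Mccc2 (ENSMUSG00000021646), vehicle mice had 63.9, 70.5, 67.3, 77.2 and 73.0 CPM. The mice at 10 µg/kg had 54.0, 59.8, 47.4, 47.5 and 53.1 CPM, and those at 30 µg/kg had 41.8, 22.4, 20.0, 27.2 and 29.1 CPM. The 3 groups did not overlap. Mccc2 was 2.51-fold lower at 30 µg/kg (log2 fold change -1.33, SE 0.12, adjusted p 5.05e-12) and 1.34-fold lower at 10 µg/kg (-0.43, SE 0.12, adjusted p 0.0043). The step between the 2 doses was -0.90 (SE 0.12).

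Mccc1 (ENSMUSG00000027709), the biotin-carrying subunit, had 44.0, 41.2, 43.6, 48.7 and 51.4 CPM in vehicle mice and 35.2, 20.6, 22.3, 25.5 and 24.3 CPM at 30 µg/kg. It fell 1.79-fold (log2 fold change -0.84, SE 0.10, adjusted p 1.51e-09). At 10 µg/kg, 3 of the 5 mice were below every vehicle mouse and the log2 fold change of -0.19 did not pass (adjusted p 0.118). Mccc1 shares 321 exonic bases with B230207O21Rik on the opposite strand. Counts of both strand settings were 41.9% higher and gave -0.82 at 30 µg/kg.

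Ivd (ENSMUSG00000027332) had its highest mean at 3 µg/kg and its lowest at 30 µg/kg. Vehicle mice had 248, 283, 293, 288 and 323 CPM, mice at 3 µg/kg had 392, 342, 350, 382 and 404 CPM, and mice at 30 µg/kg had 316, 156, 164, 194 and 200 CPM. All 5 mice at 3 µg/kg were above every vehicle mouse, as were all 5 at 0.3 and all 5 at 1 µg/kg. At 3 µg/kg 5.23% of all genes tested lay wholly above vehicle, and at 0.3 and 1 µg/kg this share was not computed. The log2 fold change was 0.38 at 3 µg/kg (SE 0.11, adjusted p 0.0239), short of the fold threshold, and 0.27 and 0.29 at 0.3 and 1 µg/kg, where it did not pass. In the top dose group it was -0.48 (SE 0.11, adjusted p 0.000486), also short of the threshold, with replicate 1 inside the vehicle range and the other 4 below it. From 10 to 30 µg/kg Ivd fell 1.67-fold (log2 difference -0.74, SE 0.11, adjusted p 3.59e-06).

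For valine, Acad8 encodes isobutyryl-CoA dehydrogenase and Hibadh encodes 3-hydroxyisobutyrate dehydrogenase, which acts later in the route. Acad8 (ENSMUSG00000031969) also had its highest mean at 3 µg/kg and its lowest at 30 µg/kg. Vehicle mice had 64.9, 83.0, 74.4, 76.3 and 71.0 CPM, mice at 3 µg/kg had 98.0, 97.8, 104, 94.1 and 103 CPM, and mice at 30 µg/kg had 69.6, 51.2, 43.2, 44.7 and 55.7 CPM. The mice at 3 µg/kg were all above every vehicle mouse, a separation that 5.23% of all genes tested had. Of the 5 mice at 30 µg/kg, 4 were below vehicle. The log2 fold changes were 0.43 (SE 0.11, adjusted p 0.0054) and -0.48 (SE 0.11, adjusted p 0.000168), neither of them past the fold threshold. From 10 to 30 µg/kg Acad8 fell 1.57-fold (log2 difference -0.65, SE 0.11, adjusted p 7.73e-06).

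Hibadh (ENSMUSG00000029776) had 357, 353, 388, 413 and 434 CPM in vehicle mice, 315, 293, 257, 307 and 338 CPM at 10 µg/kg and 228, 173, 192, 215 and 202 CPM at 30 µg/kg. The 3 groups did not overlap. Hibadh was 1.29-fold lower at 10 µg/kg (log2 fold change -0.36, SE 0.08, adjusted p 0.000846) and 1.92-fold lower at 30 µg/kg (-0.94, SE 0.08, adjusted p 5.6e-12).

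For isoleucine, Acadsb (ENSMUSG00000030861) encodes the short/branched-chain acyl-CoA dehydrogenase. Vehicle mice had 151, 130, 152, 175 and 115 CPM. Mice at 10 µg/kg had 92.9, 99.2, 88.2, 68.2 and 49.6 CPM, and mice at 30 µg/kg had 86.6, 44.8, 46.9, 50.4 and 37.6 CPM. Both doses lay wholly below vehicle. They overlapped one another, since replicates 1 and 4 at 30 µg/kg were above the lowest mouse at 10 µg/kg. The lowest mouse at each dose was replicate 5, at the last place of the second run, where vehicle has no library. The fall was 1.82-fold at 10 µg/kg (log2 fold change -0.86, SE 0.22, adjusted p 0.00185) and 2.72-fold at 30 µg/kg (-1.44, SE 0.22, adjusted p 5.31e-07). These were the largest falls of the 10 genes at both doses in the fit without covariates. With run and place as covariates, Bckdha (-1.40) and Mccc2 (-1.35) were past Acadsb (-1.33) at 30 µg/kg, and in the second run alone Bckdha (-1.75) was past Acadsb (-1.71). Taken within the runs at 10 µg/kg, Acadsb was at -0.60 in the first run, with no call, and it was called in the second run.

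Cell type markers and the scale of the libraries moved with these results at 30 µg/kg. Of 8 hepatocyte markers, 6 were called lower, beside 18.9% of all genes tested. The summed level of the 8 was 39490 to 82855 CPM against 119855 to 147205 CPM in vehicle. All 6 macrophage markers, all 4 lymphocyte markers and all 5 stellate and fibroblast markers were called higher. So were 2 of 4 endothelial and 3 of 4 cholangiocyte markers, and Sox9 of the latter was called lower. Of all genes tested, 42.1% were called in either direction. Macrophage markers summed to 524 to 1359 CPM against 154 to 215 CPM, lymphocyte markers to 25.9 to 38.1 against 4.54 to 10.3, stellate and fibroblast markers to 490 to 1027 against 145 to 213, endothelial markers to 183 to 240 against 113 to 150, and cholangiocyte markers to 15.9 to 95.8 against 14.4 to 19.3. The cholangiocyte sum had a median of 20.3 CPM at 30 µg/kg, and replicate 1, at 16.5 CPM, lay inside the vehicle range. No marker on these lists was at 0 in a vehicle or 30 µg/kg library. Replicate 1 had the highest hepatocyte sum and the lowest macrophage, lymphocyte and stellate sums of its group. The part of cell makeup in the falls was not tested.

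The size of the falls depended on how libraries were scaled. With total counts as the scale in place of TMM, the median log2 fold change of all genes at 30 µg/kg moved from 0.03 to 0.52. On that scale 3 of the 10 genes were called lower, Bckdha (-0.84), Mccc2 (-0.85) and Acadsb (-0.96), beside 10.1% of all genes tested. Of all calls at that dose, 44.9% were lower with TMM and 19.6% with total counts. Bckdhb, Mccc1 and Hibadh were at -0.34, -0.36 and -0.45, each past the threshold on adjusted p in the same test. Bcat2 was at -0.21 and passed neither rule (adjusted p 0.162). Ivd was at -0.00092, Acad8 at -0.0027, and Dbt turned to 0.013. Against the median of all genes, all 10 were lower on both scales.

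**Figure D2:**
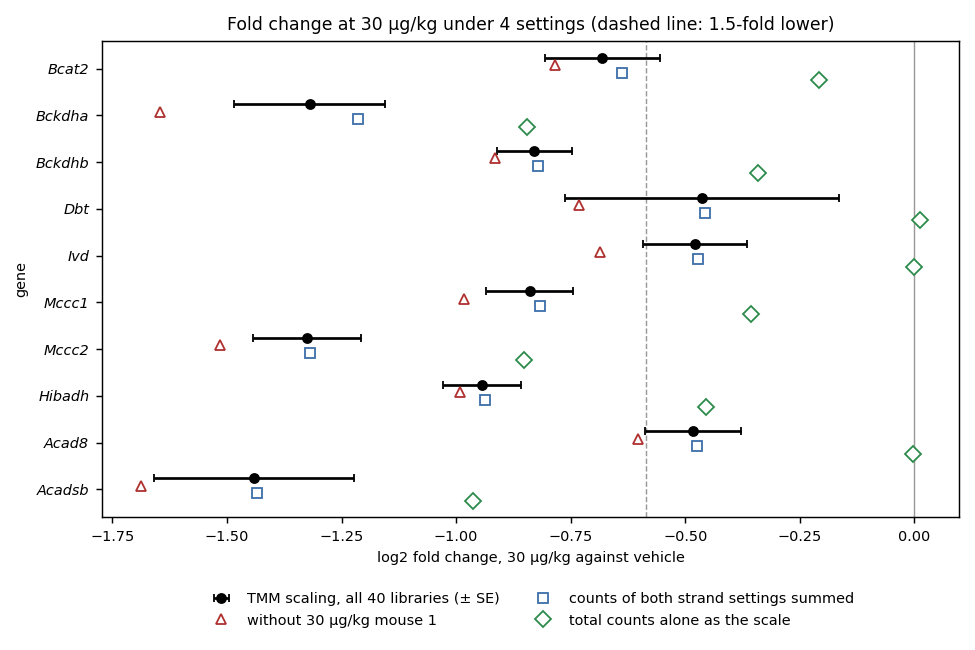
Log2 fold change at 30 µg/kg against vehicle (horizontal axis) for the 10 genes (vertical axis) with TMM scaling and SE bars, without replicate 1 at 30 µg/kg, with counts of both strand settings summed, and with total counts as the scale. The dashed line is a 1.5-fold fall. All 10 genes pass it without replicate 1, and 3 pass it with total counts.

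Ratios of 2 genes within a library do not depend on the scale. Each ratio is the log2 of the counts of one gene over those of another, and 4 ratios were compared between vehicle and 10 or 30 µg/kg by exact permutation tests, 2-sided, adjusted over 8 tests. The smallest p that 5 mice against 5 allow is 0.00794. The ratio of Mccc2 to Mccc1, 2 subunits of one carboxylase, was 0.54, 0.77, 0.63, 0.67 and 0.51 in vehicle mice, 0.31, 0.46, 0.31, 0.27 and 0.58 at 10 µg/kg, and 0.25, 0.12, -0.16, 0.09 and 0.26 at 30 µg/kg. All 5 mice at 30 µg/kg were below every vehicle mouse, and 4 of 5 at 10 µg/kg were. The differences from vehicle were -0.51 at 30 µg/kg (exact p = 0.00794, adjusted p 0.0317) and -0.23 at 10 µg/kg (exact p = 0.0238, adjusted p 0.0381). Mccc2 thus fell more than Mccc1. With the counts of both strand settings the differences were -0.53 and -0.24, both with an adjusted p of 0.0212 by the exact test.

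Within BCKDH, the ratio of Bckdhb to Bckdha was 0.90, 0.48, 0.37, 0.33 and 0.35 in vehicle mice and 0.41, 1.38, 1.30, 1.13 and 1.04 at 30 µg/kg. Replicate 1 lay among the vehicle mice and the other 4 above them all. The difference was 0.57 (exact p = 0.0238, adjusted p 0.0381). The ratio of Dbt to Bckdha differed by 0.89 (exact p = 0.0238, adjusted p 0.0381), with 3 of 5 mice above every vehicle mouse. Neither call held with the counts of both strand settings, where the differences were 0.44 (adjusted p 0.111, exact test) and 0.77 (adjusted p 0.127, exact test). At 10 µg/kg neither ratio passed, with differences of -0.22 and 0.10.

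**Figure D3:**
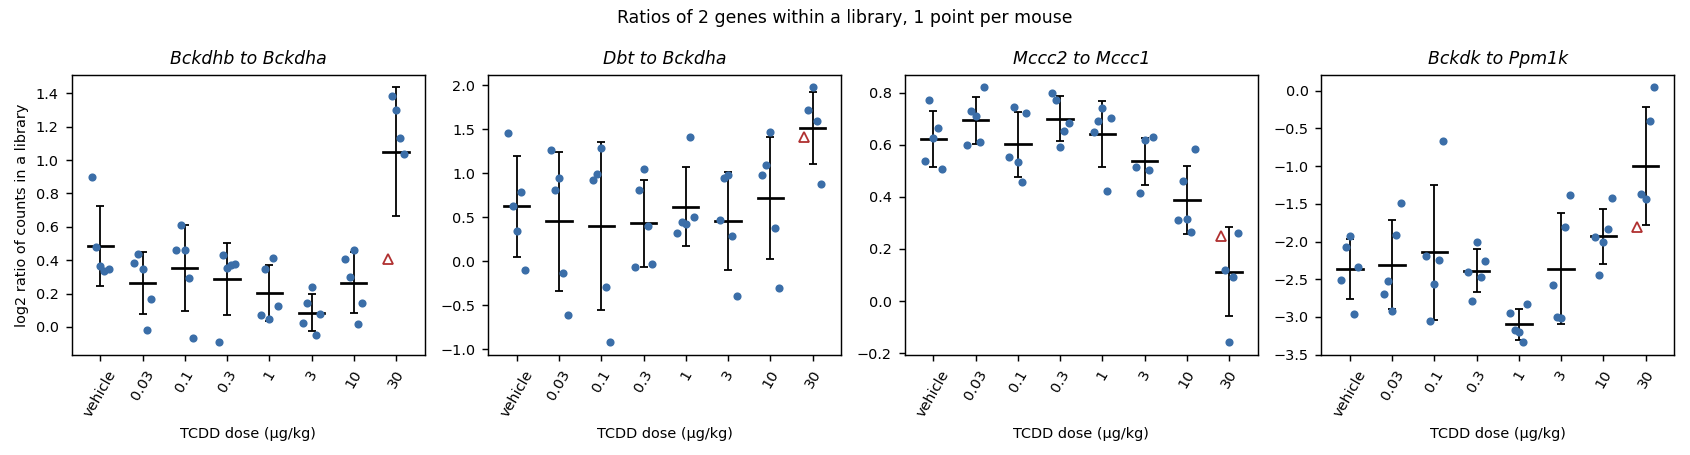
Log2 ratio of the counts of 2 genes in the same library (vertical axis) against TCDD dose (horizontal axis), with 1 point per mouse, a bar at the mean and whiskers of 1 SD (n = 5). The open triangle is replicate 1 at 30 µg/kg. Mccc2 to Mccc1 steps down from 10 µg/kg, and Bckdk to Ppm1k is highest at 30 µg/kg.

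BCKDH is switched off by a kinase, Bckdk, and switched on by a phosphatase, Ppm1k. Bckdk was at 14.3 ± 1.92 CPM in vehicle mice and 12.2 ± 2.01 CPM at 30 µg/kg (SD, n = 5), with a log2 fold change of -0.23 (adjusted p 0.174), or 0.25 with total counts as the scale. Ppm1k had 81.9, 71.4, 57.6, 92.2 and 66.9 CPM in vehicle mice and 38.6, 26.6, 29.6, 18.6 and 14.2 CPM at 30 µg/kg. All mice at 30 µg/kg were below every vehicle mouse, a separation that 17.9% of all genes tested had. Ppm1k fell by 1.54 on the log2 scale (SE 0.29, adjusted p 2.81e-05). The log2 ratio of Bckdk to Ppm1k was -2.51, -2.08, -1.93, -2.96 and -2.33 in vehicle mice and -1.81, -1.37, -1.44, -0.40 and 0.05 at 30 µg/kg. All 5 mice were above every vehicle mouse, by 1.37 on average (exact p = 0.00794, adjusted p 0.0317). The difference was 0.58 in the first run and 2.05 in the second. At 10 µg/kg the difference of 0.43 did not pass (exact p = 0.119, adjusted p 0.159). In the 6 libraries at the last place of a dose in the second run, the mean deviation of Ppm1k from its dose group was -0.64 log2 units. Vehicle has no library at that place, and the part of place in the ratio was not tested.

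The list that holds these regulators with the shared subunit Dld and the transporters had 9 genes, of which 8 were tested. Of these, 3 were called higher and 3 lower at 30 µg/kg, beside 42.1% of all genes called in either direction. The median log2 fold change of the 8 was 0.06. Slc3a2 is the heavy chain of the cell surface exchangers of large neutral amino acids, and Slc7a8 and Slc7a5 are light chains that pair with it. Slc3a2 was at 52.0 ± 7.06 CPM in vehicle and 226 ± 17.9 CPM at 30 µg/kg (SD, n = 5), with a log2 fold change of 2.12 (SE 0.13, adjusted p 3.47e-16), and it was already at 195 ± 33.9 CPM at 10 µg/kg. Slc7a8 went from 3.76 ± 0.54 to 23.6 ± 7.49 CPM (log2 fold change 2.65, SE 0.24, adjusted p 7.06e-12). All 5 mice at 30 µg/kg were above every vehicle mouse for both genes, and the share of all genes with that separation was not computed.

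Slc43a1, a facilitated carrier of branched-chain amino acids, fell from 6.72 ± 2.06 to 2.54 ± 0.54 CPM (log2 fold change -1.40, SE 0.23, adjusted p 3.1e-06). The other called genes of the list were Slc7a5 (log2 fold change 1.10, SE 0.20) and Slc25a44, the mitochondrial carrier of branched-chain amino acids (-1.39, SE 0.14), and these were named after their values were seen. Slc25a44 had 77.4 to 94.6 CPM in vehicle mice, 37.5 to 61.1 CPM at 10 µg/kg and 24.5 to 39.1 CPM at 30 µg/kg. Both doses were wholly below vehicle, as were 10.1% of all genes tested at 10 µg/kg and 17.9% at 30 µg/kg. Bcat1, the cytosolic transaminase, had no count in any vehicle library and at most 9 counts in a library at 10 µg/kg, and was not tested. With total counts as the scale, 7 of the 8 genes were called, 4 higher and 3 lower, beside 51.8% of all genes called in either direction, and Dld was among them at 0.85 in place of 0.35.

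Of 6 genes for further steps of the 3 routes, 3 were called lower at 30 µg/kg and 0 higher by edgeR, beside 18.9% of all genes called lower. Hsd17b10, a dehydrogenase of the isoleucine route, had the largest fall, from 146 ± 21.2 to 31.7 ± 12.6 CPM (log2 fold change -2.21, SE 0.17, adjusted p 7.73e-14). It was also called at 10 µg/kg, at -1.02. Aldh6a1, the last dehydrogenase of the valine route, was at -1.14 (SE 0.13). Acat1, the thiolase that ends the isoleucine route, was at -0.87 (SE 0.10). By adjusted p alone 5 of the 6 genes were lower, beside 26.6% of all genes tested, and the median of the 6 was -0.72. With total counts as the scale 2 stayed called, beside 10.1% of all genes called lower, and 2 had positive values (Auh 0.26 and Hibch 0.02).

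Propionyl-CoA from valine and isoleucine is carried on to succinyl-CoA by the products of 4 genes, of which 2 were called lower at 30 µg/kg on both scales, Pcca (log2 fold change -1.42) and Pccb (-1.49), the subunits of propionyl-CoA carboxylase. In every one of the 5 mice at 30 µg/kg both were below all vehicle mice, a separation that 17.9% of all genes tested had. Of all genes tested, 18.9% were called lower with TMM and 10.1% with total counts. The list of cofactor supply held 8 genes, of which 2 were called lower, beside 18.9% of all genes tested. Etfdh, which takes electrons from the acyl-CoA dehydrogenases Ivd, Acad8 and Acadsb by way of a flavoprotein, fell from 268 ± 16.4 to 115 ± 17.8 CPM (log2 fold change -1.22, SE 0.09, adjusted p 5.37e-14). Btd, which recycles the biotin used by the carboxylases, was at -0.84 (SE 0.10). With total counts as the scale, Btd was at -0.36 and lost its call, and 2 genes of the list were called, Etfdh lower and Lias higher, beside 51.8% of all genes called in either direction.

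Among 10 genes of the related pyruvate and oxoglutarate dehydrogenase complexes, 3 were called higher and 1 lower at 30 µg/kg. Of all genes tested, 42.1% were called in either direction, and the median log2 fold change of the 10 genes was 0.18. Pdk1, a kinase that switches off pyruvate dehydrogenase, fell from 102 ± 12.3 to 32.6 ± 9.47 CPM (log2 fold change -1.65, SE 0.13, adjusted p 1.75e-13). Pdk4, another such kinase, rose from 24.9 ± 3.65 to 360 ± 371 CPM (3.85, SE 0.54, adjusted p 1.36e-07), with mice between 39.8 and 817 CPM. Pdp1, a phosphatase that switches the complex on, was at 1.00 (SE 0.41), and Ogdh was at 0.60 (SE 0.14). Neither of these 2 was called in the first run alone. With total counts as the scale, 6 of the 10 genes were called, 5 higher and 1 lower (Pdk1), beside 51.8% of all genes called in either direction.

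**Figure D4:**
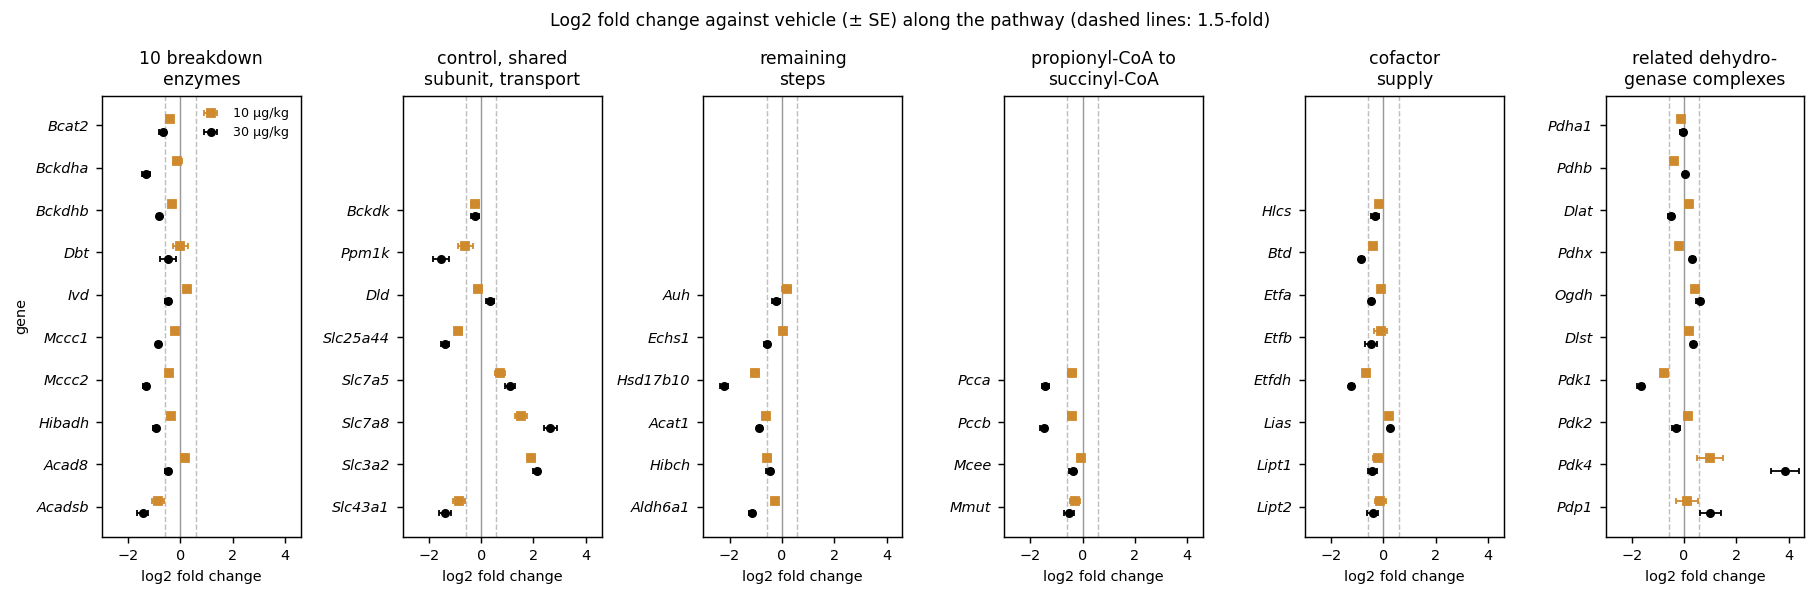
Log2 fold change against vehicle (horizontal axis, with SE bars) at 10 µg/kg (squares) and 30 µg/kg (circles) for the 10 breakdown genes and 5 lists of further genes (vertical axes), with dashed lines at 1.5-fold. Falls at 30 µg/kg are seen along the breakdown route, while Slc3a2, Slc7a8 and Slc7a5 rose.

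Levels between genes were compared per kilobase of the principal transcript, in CPM per kilobase, with both strand settings summed so that the 3 genes with large shared stretches could be placed. In vehicle mice Hibadh was highest at 213 ± 19.1, followed by Bckdha at 156 ± 23.1, Bcat2 at 78.3 ± 3.65, Ivd at 78.3 ± 7.28, Bckdhb at 50.2 ± 2.95, Mccc2 at 33.2 ± 2.41, Mccc1 at 26.5 ± 1.99, Acad8 at 25.9 ± 2.34, Dbt at 25.5 ± 7.41 and Acadsb at 23.8 ± 3.74 (SD, n = 5). Bcat2 and Ivd overlapped, as did each neighbouring pair from Mccc1 down to Acadsb, and the other neighbours did not. Hibadh also had the highest mean at 30 µg/kg, at 111 ± 11.5, and overlapped Bckdha, while Acadsb was lowest at 8.76 ± 3.16. The levels of Bckdha, Bcat2 and Mccc1 include reads of the genes that share their exons and are uncertain: on the unstranded counts they were 27.9, 20.2 and 18.6 in vehicle mice.

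The 2 runs of titles gave separate values. In the first run alone 7 genes were called at 30 µg/kg, the same 7 as in all libraries, beside 14.2% of all genes called lower there. In the second run alone 9 were called, all but Dbt, beside 18% of all genes. The first run holds replicates 1 and 2 at 30 µg/kg and the second holds the other 3. Log2 fold changes in the first and second run were -0.90 and -1.75 for Bckdha, -0.70 and -0.94 for Bckdhb, -1.08 and -1.59 for Mccc2, -0.88 and -1.08 for Hibadh, -1.15 and -1.71 for Acadsb, and -0.23 and -0.74 for Ivd. Each gene was lower than vehicle in both runs.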

How the data were processed

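Liver RNA of 40 mice was sequenced, 1 library per mouse, and the authors deposited for each library read counts per gene in an unstranded and 2 strand-specific columns, and 1 table of log2 normalized values. The submitters' processing notes name FastQC 0.11.7, Trimmomatic 0.39, STAR 2.7.3a and the builds GRCm39 and mm10. The gene annotation and the normalization of the log2 table were not given in the sources used here. Between 19.2% and 28.7% of reads per library fell in rows that name no gene, and these were left out. Identifiers were named from GENCODE M21 (52083 of 55359), which also gave lengths and overlaps.

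Unstranded counts were tested with edgeR 4.0.16 in R 4.3.3: filterByExpr (minimum count 10), TMM scaling, 1 mean per dose over all 40 libraries, and the quasi-likelihood test with Benjamini-Hochberg adjustment over 15373 genes. The study's own method, an empirical Bayes posterior, was not used here. CPM values use TMM-scaled library sizes. A gene was called at an adjusted p under 0.05 and a fold of at least 1.5. Ratios took counts plus 0.5. Replicate numbers follow accession order and pair nothing. All labelled replicates are separate mice. Scripts were tested on simulated data.

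The 10 genes and all lists were chosen with earlier results of these data known. A few genes of the lists are not reported here. Named were all 10 genes, at most 4 genes per further list by size of change among those called at 30 µg/kg, Bckdk and Ppm1k in any case, and the 5 genes of most like pattern. Any other gene named was chosen after its values were seen. Alternatives were relative log expression and total count scaling, other filters, run and place covariates, each run alone, a strand-specific column, leaving out each mouse, DESeq2 1.42.0, limma 3.58.1 on the log2 table, other pseudocounts and no fold threshold. The sum of both strand-specific columns was added after seeing the data. Each SE was taken back from the test, as the absolute log2 fold change over the square root of its F statistic. The 95% interval is the approximate normal interval from that SE. It is for the difference between group means, reflects the spread between mice and does not give their range.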

Additional observations from a re-analysis of the deposited data

Results flagged for a closer look

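In 8 of 112 groups of 5 mice, the highest or lowest mouse lay so far from the others that its gap to the nearest, divided by the range of the group, was above 0.71 (Dixon's 95% critical value for 5). Chance marks about 1 in 20 groups. At 30 µg/kg the mouse was replicate 1 in each case, with 38.5 CPM for Bckdha, 316 CPM for Ivd and 86.6 CPM for Acadsb, each the highest of its group. Replicate 5 at 3 µg/kg was highest for Bcat2 at 32.9 CPM. Replicate 4 at 1 µg/kg was highest for Dbt at 129 CPM and for the log2 ratio of Dbt to Bckdha at 1.41. The log2 ratio of Bckdhb to Bckdha was highest in vehicle replicate 1 at 0.90 and lowest in replicate 1 at 0.3 µg/kg, at -0.093.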

How the results depend on the processing

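No paired analysis was possible because the labels give no replicate numbers shared between groups. The 7 calls at 30 µg/kg numbered 3 with total counts as the scale, beside 10.1% of all genes called lower. They numbered 7 to 9 under the other settings that kept all mice. At 10 µg/kg the 1 call, beside 8.13% of all genes called lower, became 5 without a fold threshold (14.1% of all genes). It became 0 in the first run (4.5%) and 2 in the second (6.35%). Between 10 and 30 µg/kg the 5 calls, beside 10.6% of all genes called lower, became 8 without a fold threshold (16.9% of all genes). They became 2 with total counts (6.32%) and 3 in the first run (2.24%). Leaving out 1 mouse gave 6 to 10 calls at 30 µg/kg, 5 to 7 between the doses, 1 to 1 at 10 µg/kg and 7 to 7 trends. The 7 trends numbered 8 with total counts, where the slopes of Ivd (0.039), Acad8 (0.044) and Dbt (0.021) were upward, Dbt without passing, and that of Mccc1 did not pass, and 5 in the first run, without Bckdha and Mccc1. Signs turned with total counts for Dbt at 30 µg/kg (0.013) and, at 10 µg/kg, for Bckdha (0.092), Mccc1 (0.025, and 0.0024 in the first run) and Dbt (0.23). Dbt at 10 µg/kg was also 0.0080 without a filter, 0.019 with a mean count of at least 50, 0.058 with run as covariate, 0.16 with run and place, 0.057 and 0.027 in the first and second run, 0.0094 with vehicle and that dose alone, and -0.13 to 0.15 leaving out 1 mouse. Some ratio calls were lost: Bckdhb to Bckdha at 30 µg/kg was 0.43 with a strand-specific column, 0.44 with both summed, 0.31 and 0.81 in the runs and 0.48 to 0.73 without 1 mouse. Dbt to Bckdha was 0.79, 0.77, 0.76 and 1.14 in the same order and 0.71 to 1.10 without 1 mouse, and -0.091 to 0.35 at 10 µg/kg. Mccc2 to Mccc1 was -0.26 and -0.20 in the runs at 10 µg/kg and -0.46 and -0.52 at 30 µg/kg, with -0.28 to -0.20 and -0.55 to -0.44 without 1 mouse. Bckdk to Ppm1k was 0.58 and 2.05 in the runs at 30 µg/kg, -0.020 in the first run at 10 µg/kg, and 1.11 to 1.57 at 30 µg/kg without 1 mouse. Within runs and without 1 mouse the exact test has fewer mice and a higher smallest p. For the other settings the cause was not tested. Counts were no limit for the 10 genes, the lowest at 30 µg/kg being 347 in a library.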

Other observations

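Among 9240 other genes with a mean count of at least 100, the genes whose log2 CPM followed the mean of the 10 breakdown genes most closely over the 40 libraries were Cyp2j5 (Pearson r 0.99), Cyp2d38-ps, Ugt2a3, AI182371 and Rgn (0.98 each). Libraries share their dose, and without the 30 µg/kg group r was between 0.79 and 0.89 over 35 libraries. At 30 µg/kg these 5 genes had log2 fold changes from -3.48 to -2.22. Among the 10 genes themselves, Mccc1 and Mccc2 followed the mean of the other 9 with r of 0.97 and 0.96, and 0.72 and 0.77 without the 30 µg/kg group. Ivd, Acad8 and Dbt had r of 0.78, 0.70 and 0.36, and -0.27, -0.16 and -0.01 without that group. These correlations are descriptions across libraries, with no test.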
